A study of Homo sapiens with 6 samples.

Results

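The genes described here are 53 splicing regulators, taken by symbol from a table of 36459 gene symbols. They are every hnRNP gene (25, leaving out symbols of processed copies) and every SR protein gene (12), with PTBP1 to PTBP3, TRA2A, TRA2B, CLK1, CLK4, ESRP1, ESRP2, RBFOX2, MBNL1 to MBNL3, QKI, NOVA1 and CELF1. Of the 188753 transcripts in the transcript table, 620 belong to these genes. PC9 cells are an established line of human lung adenocarcinoma that grows on EGFR signalling. PS are the persister cells that remained when PC9 cells were kept in 15 µM of the EGFR inhibitor erlotinib for 6 days. RNA was sequenced from 3 libraries of untreated parental PC9, each an independent culture, and from 3 libraries of PS, which the authors pooled from 9 cultures. Neither condition carries a genetic change made by the study, and the comparison of PS with PC9 asks how the persister state differs from the parental state. PS cells had been exposed to erlotinib and PC9 cells had not, so drug exposure and the persister state cannot be told apart.

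Most human genes make several mRNAs by joining their exons in different ways. SR proteins bind mostly within exons and favour their inclusion, whereas hnRNP proteins often oppose it, and a small set of further RNA-binding proteins, such as ESRP1, RBFOX2, MBNL and QKI, sets splicing patterns typical of epithelial, muscle, nerve or mesenchymal cells. Many of these regulators also splice their own transcripts into forms with an early stop codon or a kept intron, which are degraded or stay in the nucleus, so that the level of a gene and the mix of its transcripts are separate measures.

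The 3 sequences below show where transcripts of CLK1, HNRNPC and SRSF6 that are described further on differ within coding exons. They were read from the GRCh38 genome, 5′ to 3′ on the gene's strand, with exon structures from GENCODE 44. The first is the exon of CLK1-201 that is skipped in CLK1-204, at chr2:200860125-200860215 on the minus strand. Its 91 bases are in capitals between 20 intron bases on each side, and its length is not a multiple of 3, so skipping it shifts the reading frame. The second is a 39-base stretch of HNRNPC, at chr14:21230958-21230996 on the minus strand, that lengthens a coding exon where a downstream 5′ splice site is used. It is in capitals after the last 30 bases of the shared exon and before 20 intron bases, and its length is a multiple of 3. The third is the coding part of the exon that SRSF6-202 has and SRSF6-201 lacks, at chr20:43459153-43459304 on the plus strand, after 20 intron bases. The whole exon ends at 43459420, and the stop codon in it is in capitals.
CLK1 exon: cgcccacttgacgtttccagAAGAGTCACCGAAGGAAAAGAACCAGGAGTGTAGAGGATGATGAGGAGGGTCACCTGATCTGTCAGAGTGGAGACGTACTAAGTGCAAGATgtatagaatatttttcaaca
HNRNPC exon end: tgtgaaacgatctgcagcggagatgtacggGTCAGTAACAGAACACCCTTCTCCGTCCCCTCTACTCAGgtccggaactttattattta
SRSF6 exon: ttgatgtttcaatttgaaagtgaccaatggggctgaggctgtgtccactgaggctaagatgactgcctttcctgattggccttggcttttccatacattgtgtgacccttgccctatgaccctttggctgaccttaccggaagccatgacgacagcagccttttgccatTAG

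Each library held between 29476725 and 34893782 gene counts, and the splicing regulators took between 1.16% and 1.19% of them in each of the 6. Replicates were further apart than sampling noise allows (chi-square per degree of freedom 3.41 to 19.96), so all were kept as replicates, and the p-values below measure the spread between these cultures and pools. Of the epithelial markers, EPCAM, KRT8, KRT18, KRT19 and CDH1 were all high (the 4 others lower and CDH1 higher in PS), at means from 207 to 2323 CPM (read counts scaled to a common library total with TMM factors) in PC9 and from 314 to 1337 CPM in PS. The lung lineage marker SFTPC, the T cell gene CD3E and the fibroblast gene COL3A1 were at 0 in every library, NKX2-1 was at most 0.0343 CPM, and COL1A1 (10.2 CPM in PC9 and 28.3 in PS), CD68 (74.8 and 21.1), PECAM1 (4.37 and 0.214), SFTPB (4.18 and 1.23) and CDH5 (3.82 and 2.98) were above 0. These were cultures of a cell line, and the part of these markers in the results was not tested.

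Of the 53 splicing regulators, 48 had enough counts to be tested. HNRNPCL1 to HNRNPCL4 were at 0 in every library and SRSF12 had 4 to 9 counts. In edgeR's quasi-likelihood test across all 14626 genes, with a limit of a Benjamini-Hochberg adjusted p of 0.01, 28 of the 48 passed (58.3%), and 56.8% of all genes tested did. The share of splicing regulators past the limit was thus near that of genes at large, and is no result about them as a group. Of the 28, 18 were higher in PS and 10 lower, while 28.7% of all genes tested were higher and 28.1% lower. The PC9 and PS libraries did not overlap for 33 of the 48, where 71.3% of all genes did not. No splicing regulator passed the limit with a log2 fold change over 1 in size, which 11.6% of all genes did. Their log2 fold changes ran from -0.70 for HNRNPA1 to 0.61 for QKI, with a median of 0.08 against -0.0061 for all genes tested. In bulk RNA, fewer cells of a kind and less RNA per cell cannot be told apart.

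**Figure D1:**
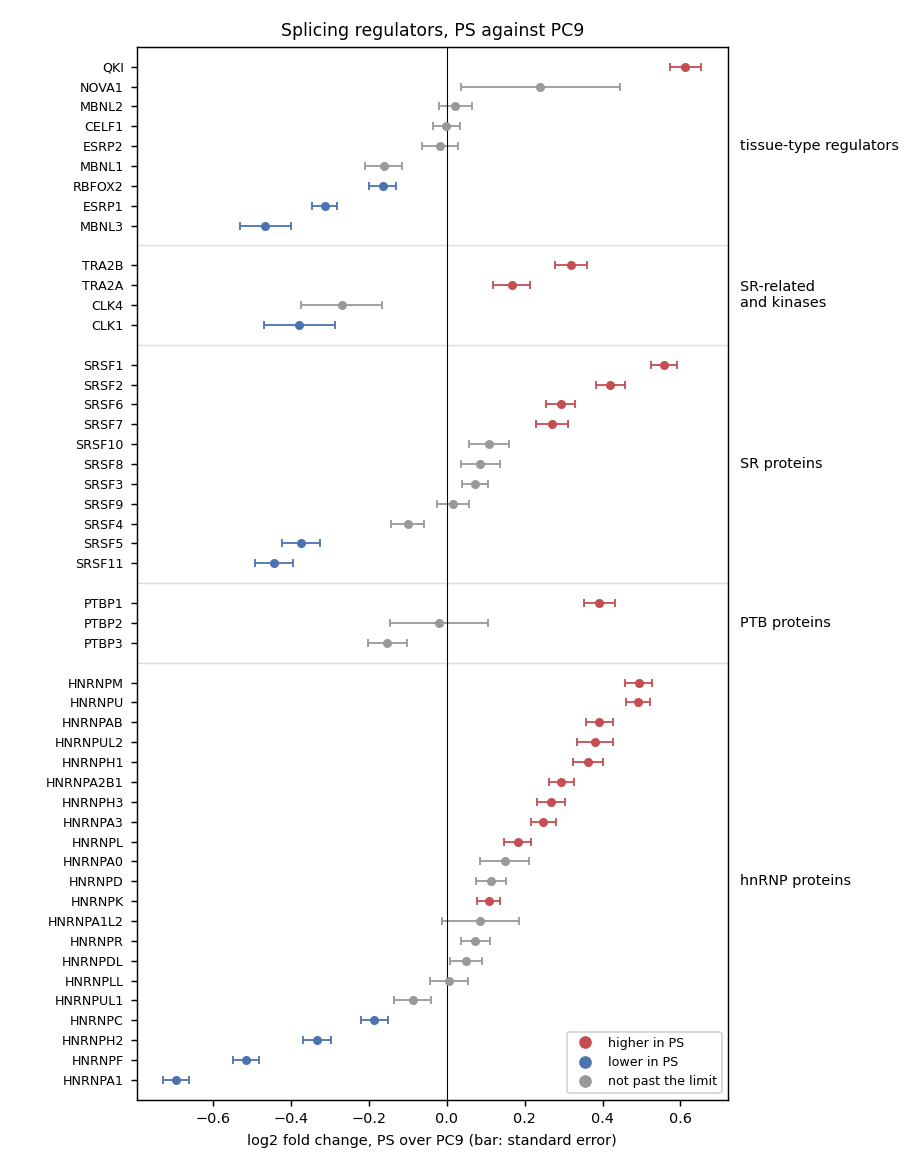
Log2 fold change, PS over PC9, of the 48 splicing regulators tested, grouped by role. Each point is the estimate from edgeR and its bar the standard error. Red points were higher and blue points lower past an adjusted p of 0.01, and grey points did not pass. Both directions occur in every group except the PTB proteins, where PTBP1 alone passed, and all points lie between -0.70 and 0.61.

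Among the hnRNP proteins 21 were tested, of which 10 rose, 4 fell and 7 did not pass. Thus 66.7% passed, where 56.8% of all genes tested did. HNRNPA1 (ENSG00000135486, chromosome 12, 54280193 to 54287088 of GRCh38), which represses exon inclusion and shuttles between nucleus and cytoplasm, was the most abundant splicing regulator per transcript length, at 1711 ± 30.2 TPM (SD, n = 3) in PC9. TPM are counts per kilobase of transcript, scaled to the same total in each library. Its PC9 libraries had 1536, 1512 and 1526 CPM and its PS libraries 915, 959 and 951 CPM. Every PS library lay far below every PC9 library, and the fall was 1.62-fold (log2 fold change -0.70, standard error 0.0332, edgeR adjusted p = 1.81e-08). HNRNPF, which binds runs of guanines, had 468, 483 and 479 CPM in PC9 and 325, 338 and 336 CPM in PS, without overlap. Its fall was by 0.52 on the log2 scale (standard error 0.0338, edgeR adjusted p = 2.01e-07). HNRNPH2, of the same guanine-binding family, went from 149, 155 and 149.9 CPM to 119, 119 and 122 CPM (log2 fold change -0.33, edgeR adjusted p = 1.05e-05). Its relatives moved the other way. HNRNPH1 had 284, 268 and 266 CPM in PC9 and 357, 352 and 342 CPM in PS (log2 fold change 0.36, edgeR adjusted p = 8.27e-06), and HNRNPH3 rose by 0.27 on the log2 scale. The guanine-binding family was thus split, with HNRNPF and HNRNPH2 lower and HNRNPH1 and HNRNPH3 higher.

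HNRNPC, which binds uridine tracts of newly made RNA, fell by a smaller amount, from 644, 622 and 642 CPM to 543, 573 and 561 CPM (log2 fold change -0.19, standard error 0.0349, edgeR adjusted p = 6.92e-04). The largest hnRNP rises were those of HNRNPM and HNRNPU. HNRNPM, which binds guanine- and uridine-rich sites, had 184, 189.6 and 187 CPM in PC9 and 258, 269 and 262 CPM in PS, a 1.41-fold rise (log2 fold change 0.49, standard error 0.035, edgeR adjusted p = 3.91e-07). HNRNPU, a nuclear scaffold protein that binds RNA and chromatin, had 535, 535 and 541 CPM in PC9 and 759.6, 747 and 758 CPM in PS (log2 fold change 0.49, edgeR adjusted p = 1.59e-07). For both genes the distance between the conditions was many times the spread within either. HNRNPUL2, related to HNRNPU, had 156, 175 and 168 CPM in PC9 and 219.6, 213 and 218 CPM in PS (log2 fold change 0.38, edgeR adjusted p = 2.35e-05). HNRNPAB, which binds AU-rich RNA, had 228, 239 and 231 CPM in PC9 and 304, 310.3 and 302 CPM in PS (log2 fold change 0.39, edgeR adjusted p = 2.29e-06). The PS libraries were the higher ones throughout.

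HNRNPK, a binder of cytosine-rich RNA and the hnRNP gene second to HNRNPA1 per transcript length (653 ± 10.4 TPM in PC9, SD, n = 3), differed little. Its libraries had 759, 763 and 759 CPM in PC9 and 821, 819 and 817 CPM in PS, or 0.11 higher on the log2 scale, which passed narrowly (edgeR adjusted p = 9.31e-03). That call was lost in 11 of 15 other settings, among them every one that left out 1 library. HNRNPA2B1, HNRNPA3 and HNRNPL also passed, with rises of 0.29, 0.25 and 0.18 on the log2 scale. HNRNPA1 thus differed in direction from its relatives HNRNPA2B1 and HNRNPA3, while HNRNPA1L2 did not pass (log2 fold change 0.09, edgeR adjusted p = 0.457). The log2 fold changes of the 7 hnRNP genes that did not pass ran from -0.09 for HNRNPUL1 to 0.15 for HNRNPA0. HNRNPA1 has 75 processed gene copies in the table, whose counts summed to 1.35% of its own in PC9 and 3.51% in PS. Among them HNRNPA1P33 rose from a mean of 6.84 to 24.96 CPM and HNRNPA1P48 fell from 10.3 to 5.40 CPM. Kallisto divides reads that fit several transcripts, so the counts of such copies are uncertain. With the counts of the copies added, a step chosen after seeing the data, HNRNPA1 still fell, by 0.66 on the log2 scale.

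**Figure D2:**
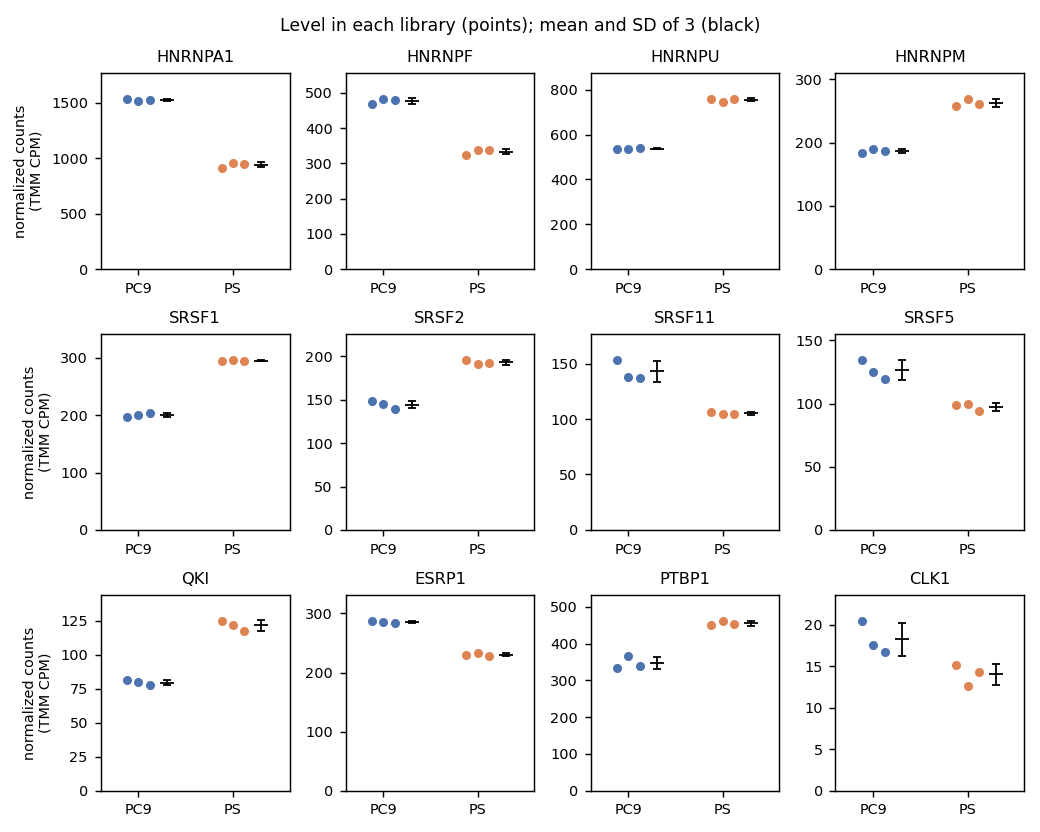
Normalised counts (TMM CPM) of 12 splicing regulators in each library. Blue points are the PC9 and orange points the PS libraries, black bars give the mean and SD of 3, and every axis includes 0. For each of the 12 genes shown no PS library lies within the range of the PC9 libraries. HNRNPA1, HNRNPF, SRSF11, SRSF5, ESRP1 and CLK1 are lower in PS and the other 6 higher.

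Of the 3 polypyrimidine tract binding proteins, which block exons flanked by pyrimidine-rich tracts, PTBP1 alone passed (33.3%, where 56.8% of all genes tested did). PTBP1, the form of most proliferating cells, had 334, 365 and 340.2 CPM in PC9 and 449, 463 and 452 CPM in PS (log2 fold change 0.39, standard error 0.0396, edgeR adjusted p = 6.54e-06). PTBP2, its neuronal counterpart, was low, between 5.61 and 7.41 CPM in PC9 and between 5.62 and 7.13 CPM in PS, with overlapping libraries. PTBP3 had 395, 343 and 374 CPM in PC9 and 346, 326 and 328 CPM in PS. The libraries of PTBP3 overlapped, and its log2 fold change of -0.15 missed the limit (edgeR adjusted p = 0.0199).

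Of 11 SR proteins tested 4 rose, 2 fell and 5 did not pass. Thus 54.5% passed, where 56.8% of all genes tested did. SRSF1, a founding member of the family that promotes the use of nearby splice sites, had 196, 201 and 204 CPM in PC9 and 295, 297 and 294 CPM in PS. The rise was 1.47-fold (log2 fold change 0.56, standard error 0.0334, edgeR adjusted p = 1.03e-07). SRSF2, the SR protein that stays in the nucleus, had 148, 145 and 139.8 CPM in PC9 and 196, 192 and 192 CPM in PS (log2 fold change 0.42, edgeR adjusted p = 2.05e-06). For both, the PS libraries were all above the PC9 libraries and close to each other. SRSF6 rose from 149, 148 and 142 CPM to 183, 178 and 176 CPM (log2 fold change 0.29, edgeR adjusted p = 3.21e-05). SRSF7, which also acts in mRNA export, rose from 73.7, 75.2 and 77.1 CPM to 91.9, 87.7 and 93.0 CPM (log2 fold change 0.27, edgeR adjusted p = 1.38e-04).

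SRSF11 and SRSF5 went the other way. SRSF11 had 154, 138 and 137 CPM in PC9 and 106, 104 and 105 CPM in PS (log2 fold change -0.44, standard error 0.0478, edgeR adjusted p = 1.05e-05). SRSF5 had 135, 125 and 119 CPM in PC9 and 98.5, 99.6 and 94.1 CPM in PS (log2 fold change -0.38, edgeR adjusted p = 5.00e-05). In both, every PS library was the lower one. SRSF3 and SRSF9 were the most abundant SR genes per transcript length over both conditions together, at 267 ± 5.27 and 209 ± 9.44 TPM in PC9 (SD, n = 3), where SRSF5, at 225 TPM, lay between them. SRSF3 had 217, 215 and 222 CPM in PC9 and 231, 227 and 229 CPM in PS, an edgeR adjusted p of 0.0758. SRSF9 had 124, 131 and 123 CPM in PC9 and 123, 127 and 131 CPM in PS, with overlapping libraries. The other 3 SR genes that did not pass, SRSF4, SRSF8 and SRSF10, had log2 fold changes between -0.10 and 0.11.

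TRA2A and TRA2B are SR-related proteins that bind purine-rich exonic enhancers, and CLK1 and CLK4 are kinases that phosphorylate SR proteins. TRA2B had 157, 144 and 147 CPM in PC9 and 189, 187 and 183 CPM in PS (log2 fold change 0.32, standard error 0.0408, edgeR adjusted p = 4.12e-05). TRA2A had 51.5, 47.7 and 49.1 CPM in PC9 and 57.4, 55.9 and 53.2 CPM in PS, or 0.17 higher on the log2 scale, which passed narrowly (edgeR adjusted p = 9.38e-03) and did not pass in 10 of 15 other settings. The PS libraries of both genes were higher than all PC9 libraries. CLK1 was low and lower still in PS, with 20.5, 17.5 and 16.7 CPM in PC9 and 15.1, 12.6 and 14.4 CPM in PS (log2 fold change -0.38, standard error 0.0916, edgeR adjusted p = 3.59e-03). Its libraries did not overlap, but the call was lost without PS replicate 2 (edgeR adjusted p = 0.0196) or PS replicate 3 (0.0108). The call was also lost with counts summed from the transcripts that could be matched. CLK4 had 16.4, 13.5 and 13.3 CPM in PC9 and 13.5, 10.8 and 11.6 CPM in PS, with overlapping libraries, and did not pass (log2 fold change -0.27, edgeR adjusted p = 0.0375).

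Of 9 regulators that set tissue-type splicing, QKI rose, MBNL3, ESRP1 and RBFOX2 fell, and 5 did not pass. Thus 44.4% passed, where 56.8% of all genes tested did. QKI, which promotes mesenchymal exon patterns and circular RNAs, had 81.0, 79.7 and 77.3 CPM in PC9 and 125, 122 and 118 CPM in PS. Its 1.53-fold rise was the largest among the splicing regulators (log2 fold change 0.61, standard error 0.0402, edgeR adjusted p = 2.06e-07). ESRP1, an epithelial regulator, had 288, 285 and 284 CPM in PC9 and 229.9, 232 and 227 CPM in PS, without overlap (log2 fold change -0.31, standard error 0.0323, edgeR adjusted p = 7.45e-06). ESRP2, its paralog, had 39.1, 41.7 and 40.0 CPM in PC9 and 38.4, 40.6 and 40.3 CPM in PS. The ESRP2 libraries overlapped, and the 2 epithelial genes therefore did not move alike, although the difference between them was not tested. QKI and ESRP1 are known to act in opposite ways on some of the same exons, and here the former was higher and the latter lower in every PS library.

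MBNL3, of the muscleblind family, had 50.3, 43.1 and 48.9 CPM in PC9 and 36.7, 32.9 and 33.6 CPM in PS (log2 fold change -0.47, edgeR adjusted p = 8.72e-05). MBNL1 had 229, 207 and 219 CPM in PC9 and 206, 191 and 189 CPM in PS and missed the limit (log2 fold change -0.16, edgeR adjusted p = 0.0105), which it passed in 8 of 15 other settings. MBNL2 had 153, 139.5 and 146 CPM in PC9 and 152, 145 and 148 CPM in PS, with overlapping libraries. RBFOX2, which binds UGCAUG, had 190.1, 187 and 195 CPM in PC9 and 171, 171 and 168 CPM in PS (log2 fold change -0.17, standard error 0.0345, edgeR adjusted p = 1.43e-03). That call was lost without PC9 replicate 3 (edgeR adjusted p = 0.0123) or PS replicate 3 (0.0113), and with counts summed from the transcripts that could be matched, which held 67.3% of its gene counts, the log2 fold change was -0.07 (edgeR adjusted p = 0.256). NOVA1, a neuronal regulator, was low, between 1.93 and 3.28 CPM in PC9 and between 2.69 and 3.94 CPM in PS. CELF1, which binds GU-rich RNA and antagonises MBNL proteins, was level in counts, with 127, 129.7 and 130.4 CPM in PC9 and 131, 127 and 129 CPM in PS.

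At the level of single transcripts, 355 of the 620 were tested and 38 passed (10.7%), where 7.80% of all 54499 transcripts tested did. Of the 38, 22 were higher and 16 lower, and of all transcripts tested 3.89% were higher and 3.91% lower. They came from 23 genes, and 33 of them moved in the direction of a gene that had itself passed, 2 moved against it and 3 belonged to a gene that had not passed. By annotation 31 are protein coding, 6 are targets of nonsense-mediated decay and 1 has a retained intron. Estimates of single transcripts carry the uncertainty of dividing reads between similar sequences, which entered no test here, and leaving out any 1 of the 6 libraries left between 13 (without PS replicate 3) and 24 (without PC9 replicate 1) transcripts past the limit.

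A change in the mix of transcripts within a gene, apart from the level of the gene, was tested for 44 splicing regulators, and 3 passed (HNRNPC, QKI and HNRNPDL, 6.82%), where 1.86% of 10542 genes did. Of these HNRNPC alone passed without each library in turn. QKI was not called without PC9 replicate 1, 2 or 3, nor HNRNPDL without any of these, PS replicate 2 or PS replicate 3. With transcripts of the same coding exons merged, a step chosen after seeing the data, neither passed (adjusted p = 0.999983 for both in edgeR). QKI was also lost with transcripts under 5% of their gene left out (edgeR adjusted p = 0.999952), and HNRNPDL with a replicate block (edgeR adjusted p = 0.0199). HNRNPF, CELF1 and CLK1 followed, with adjusted p of 0.0125, 0.0179 and 0.0218 in the usage test of edgeR (Simes method).

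CLK1 had the widest shift in its transcripts. Its usage test missed the limit, also with a replicate block (edgeR adjusted p = 0.0655). Without each library in turn it missed as well (edgeR adjusted p from 0.0514 to 0.128). It passed with an F test in place of the Simes method (edgeR adjusted p = 1.12e-04). It also passed with transcripts of the same coding exons merged, a step chosen after seeing the data. CLK1-204 (ENST00000432425), which skips the exon printed above and is annotated as a target of nonsense-mediated decay, made up 46.3%, 43.5% and 49.8% of CLK1 transcript counts in PC9 and 9.52%, 13.4% and 13.6% in PS. As a transcript it passed the limit, with 8.35 CPM on average in PC9 and 1.68 in PS (log2 fold change -2.31, standard error 0.183, edgeR adjusted p = 8.09e-04). The full-length form CLK1-201 (ENST00000321356), which includes the exon, made up 29.7%, 30.6% and 21.6% in PC9 and 39.9%, 46.9% and 48.9% in PS. Its own level did not pass, at 4.96 CPM in PC9 and 6.27 in PS on average. CLK1-210, with a retained intron and named after its values were seen, made up 18.9%, 18.7% and 23.3% in PC9 and 38.1%, 29.2% and 30.1% in PS. Of these 3 transcripts the exon-skipped one alone was lower in PS, in share and in level.

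CELF1, level as a gene in counts, changed its leading transcript. Per transcript length it averaged 51.9 ± 3.42 TPM in PC9 and 60.9 ± 2.12 TPM in PS (SD, n = 3), a difference that was not tested. CELF1-204 (ENST00000395290) made up 60.6%, 63.4% and 63.2% of its counts in PC9 and 42.2%, 44.03% and 43.4% in PS. CELF1-201 (ENST00000310513) made up 26.7%, 24.3% and 26.0% in PC9 and 45.9%, 44.7% and 44.5% in PS. In PC9 the former led clearly, and in PS the 2 transcripts had nearly equal shares, between 42.2% and 45.9%. Both transcripts passed on their own, with log2 fold changes of -0.56 (edgeR adjusted p = 8.09e-04) and 0.78 (3.75e-04). They differ in the length of the last exon, in the first exon and in small shifts of splice sites, with coding sequences of 1455 and 1446 bases and total lengths of 7666 and 4583 bases. The usage test missed the limit for the gene as a whole. It passed with transcripts under 5% of their gene left out (edgeR adjusted p = 2.34e-05) and without PC9 replicate 1. It also passed when transcripts with the same coding exons were merged, a step chosen after seeing the data. It did not pass with a replicate block (edgeR adjusted p = 0.290) or without any other library (edgeR adjusted p from 0.0874 to 0.147).

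**Figure D3:**
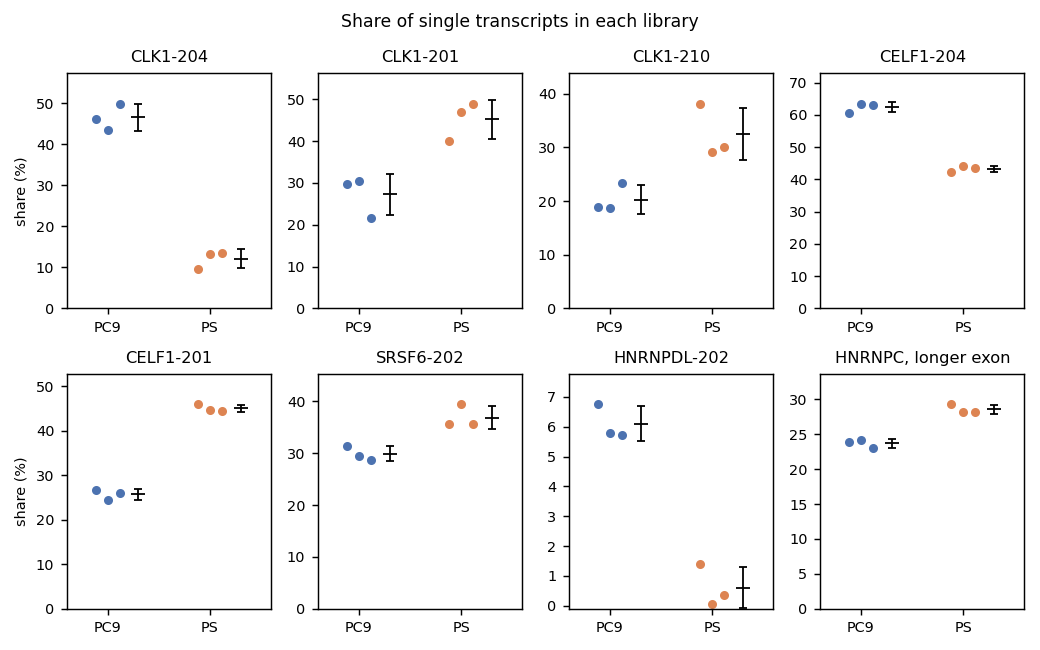
Share of single transcripts in their gene's matched transcript counts, in percent, for each PC9 (blue) and PS (orange) library, with mean and SD of 3 in black. The last panel gives the share of HNRNPC transcripts with the longer exon. CLK1-204 falls from between 43.5% and 49.8% to between 9.52% and 13.6%, and CELF1-204 and CELF1-201 draw level in PS.

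HNRNPC is spliced into a shorter and a longer protein form, known as C1 and C2, that differ by the 39 bases printed above. Over the 22 transcripts that include this exon, 9 with and 13 without the longer end, the longer form made up 23.9%, 24.2% and 23.0% in PC9 and 29.3%, 28.1% and 28.2% in PS. The PS libraries were all higher, and the shorter form remained the major one in both conditions. A pair of near-identical minor transcripts had the smallest p-values within HNRNPC, and the usage call also held when transcripts under 5% of their gene were left out. HNRNPC-221 (ENST00000555914), of the shorter form, held 3.00%, 2.89% and 3.98% of the gene in PC9 and was at 0 in every PS library, at least 227-fold lower if each PS library had 3 counts. HNRNPC-218, of the longer form and named after its values were seen, was at 0 in every PC9 library and held 2.26%, 3.13% and 2.51% in PS, at least 164-fold higher by the same floor. HNRNPC-210 (ENST00000554455), another transcript of the longer form, went from 8.28%, 9.14% and 7.94% to 14.9%, 12.2% and 11.7%. The 3 transcripts that share its coding exons together moved less, from 23.2% ± 0.919 to 25.6% ± 0.943 of the coding counts (SD, n = 3). Whether the counts of HNRNPC-221 and HNRNPC-218 reflect the division of shared reads was not tested. Both transcripts enter the share of the longer form above, and their change makes up a large part of its rise.

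QKI passed the usage test through QKI-207 (ENST00000453779), at 0 in every PC9 library and 1.53%, 1.07% and 0.797% of QKI in PS. That was at least 15.4-fold higher with 3 counts as the floor in each PC9 library, at a mean of 1.38 CPM in PS. The bulk of QKI did not shift. QKI-204, which holds a coding sequence of 957 bases but is annotated as a target of nonsense-mediated decay, made up 75.5% ± 2.16 of QKI in PC9 and 74.7% ± 1.21 in PS (SD, n = 3). QKI-202 (ENST00000361195), with 999 coding bases, made up 12.3%, 9.70% and 12.9% in PC9 and 10.7%, 9.70% and 10.1% in PS.

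HNRNPDL, an AU-rich RNA binder that regulates its own transcript, was level as a gene, with 192, 179 and 177 CPM in PC9 and 187, 194 and 186 CPM in PS. HNRNPDL-206 (ENST00000602300), its main coding transcript, went in share from 62.3%, 60.6% and 61.8% to 70.5%, 72.7% and 70.9%. HNRNPDL-202 (ENST00000349655), annotated as a target of nonsense-mediated decay, went from 6.76%, 5.79% and 5.73% to 1.39%, 0.0656% and 0.377%. The libraries of both transcripts did not overlap between conditions, although neither passed as a single transcript (edgeR adjusted p = 0.0275 and 0.0586).

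The 8 genes with the smallest usage p also included HNRNPF, HNRNPA1 and HNRNPL, of which none passed. HNRNPF-201 (ENST00000337970) made up 75.8%, 73.9% and 73.6% of HNRNPF in PC9 and 76.2%, 80.6% and 76.2% in PS, and its level fell with the gene, by 0.48 on the log2 scale (edgeR adjusted p = 1.12e-03). The minor HNRNPF-202 (ENST00000356053) went from 2.91%, 4.93% and 5.16% to 1.31%, 1.42% and 1.90% and fell by 2.03 (edgeR adjusted p = 6.48e-03). HNRNPA1-201 (ENST00000330752) made up 42.1%, 39.7% and 40.1% of HNRNPA1 in PC9 and 34.4%, 38.6% and 37.0% in PS, and HNRNPA1-202 (ENST00000340913) 36.4%, 35.4% and 34.2% in PC9 and 40.5%, 36.5% and 37.6% in PS. Both transcripts of HNRNPA1 fell with the gene, by 0.87 (edgeR adjusted p = 6.75e-04) and 0.61 (2.68e-04). HNRNPL-212 (ENST00000601449) went from 46.0%, 37.0% and 33.7% to 34.98%, 25.2% and 21.5%, with overlapping libraries, and HNRNPL-215 (ENST00000647557) from 9.10%, 17.2% and 18.4% to 22.5%, 24.0% and 26.5%, without overlap. Neither HNRNPL transcript passed in level (edgeR adjusted p = 0.284 and 0.0983), and the shares rest on the 50.0% of HNRNPL counts that could be matched.

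The share of counts on transcripts not annotated as protein coding was tested for 38 splicing regulators. Such transcripts are targets of nonsense-mediated decay, retained introns and transcripts without a defined coding sequence. QKI-204, which holds a coding sequence, is among them. SRSF2 and HNRNPDL passed (5.26%), where 0.538% of 7622 genes did. Over all genes the share was between 7.10% and 7.74% in each library. In SRSF2 it was 16.8%, 17.1% and 18.0% in PC9 and 10.5%, 11.8% and 11.4% in PS (edgeR adjusted p = 1.09e-03). SRSF2-208 (ENST00000585202), annotated as a target of nonsense-mediated decay, went in share from 8.40%, 8.85% and 8.24% to 3.79%, 5.61% and 5.71%, and the coding SRSF2-202 (ENST00000359995) went from 74.3%, 75.8% and 72.2% to 78.6%, 80.1% and 79.1%. The rise of SRSF2 as a gene was therefore accompanied by a larger coding share. The usage test did not pass for SRSF2 (edgeR adjusted p = 0.638), nor did SRSF2-208 pass in level (log2 fold change -0.36). In HNRNPDL the share was 7.96%, 8.46% and 7.04% in PC9 and 4.31%, 4.46% and 3.69% in PS (edgeR adjusted p = 5.44e-03). Both calls were lost without PC9 replicate 2, PC9 replicate 3, PS replicate 1 or PS replicate 3, and HNRNPDL also without PC9 replicate 1 or PS replicate 2, where SRSF2 kept its call.

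SRSF6 showed the opposite direction without passing. SRSF6-202, which carries the exon with the stop codon printed above, held 31.4%, 29.4% and 28.7% of SRSF6 in PC9 and 35.5%, 39.4% and 35.6% in PS, with no overlap (adjusted p of the share = 0.0520). As a transcript SRSF6-202 did pass, rising by 0.57 on the log2 scale (edgeR adjusted p = 3.33e-03), whereas the coding SRSF6-201 did not pass (log2 fold change 0.12, edgeR adjusted p = 0.144). SRSF11 had 32.8%, 26.8% and 25.4% of its counts on such transcripts in PC9 and 36.3%, 37.5% and 37.1% in PS (adjusted p = 0.233). Its coding transcript SRSF11-202 fell most, by 0.97 on the log2 scale (edgeR adjusted p = 2.02e-04), from 30.3% of the gene to 21.4% on average. The 2 transcripts with these coding exons together went from 54.0% ± 0.566 to 51.1% ± 2.91 of the coding counts (SD, n = 3), with overlapping libraries. In CLK1 the share fell furthest, from 70.7% in PC9 to 50.6% in PS on average. Its libraries did not overlap, but it did not pass (edgeR adjusted p = 0.345). Some other regulators had high but level shares. In TRA2B the share averaged 62.7% in PC9 and 62.6% in PS, and in SRSF3 it averaged 44.4% and 44.3%.

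**Figure D4:**
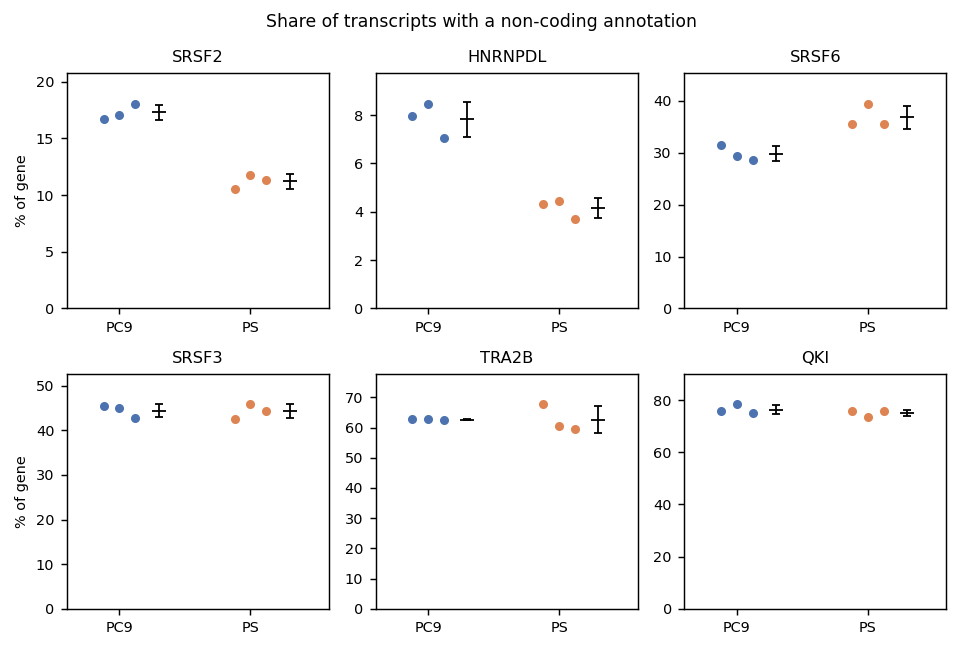
Share of transcript counts, in percent of the gene, on transcripts annotated as decay targets, retained introns or without a defined coding sequence, in PC9 (blue) and PS (orange) libraries. Mean and SD of 3 are in black. The share is lower in PS in SRSF2 and HNRNPDL and higher in SRSF6, and the libraries overlap in SRSF3, TRA2B and QKI.

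The kinases and phosphatases that act on SR proteins were described as one list of 10 tested genes, of which 1 rose and 3 fell, where 28.7% of all genes tested were higher and 28.1% lower. The 3 that fell were CLK2, CLK3 and DYRK2. CLK2 had 19.5, 19.6 and 18.7 CPM in PC9 and 12.8, 12.7 and 12.5 CPM in PS (log2 fold change -0.60, edgeR adjusted p = 3.66e-06). CLK3 had 37.8, 38.6 and 38.6 CPM in PC9 and 24.8, 26.4 and 24.5 CPM in PS (log2 fold change -0.60, edgeR adjusted p = 1.05e-06). DYRK2, a kinase of the same wider family, fell by 0.45 on the log2 scale (edgeR adjusted p = 2.84e-06).

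The core machinery moved in both directions, and each of 4 lists passed less often than the 56.8% of all genes tested, by count and without a test. Of 18 snRNP core and U1 proteins 3 rose and 4 fell. SNRPD2 and SNRPA fell by 0.46 and 0.43 on the log2 scale, and LUC7L, a U1-associated protein, rose by 0.69. Of 19 U2 and SF3 proteins 5 rose and 4 fell, with log2 fold changes of -0.46 for SF3B6, 0.28 for SF1 and 0.19 for SF3B3. Of 26 proteins of the U4/U6.U5 particle 8 rose and 4 fell. The large U5 proteins PRPF8 and SNRNP200 each rose by 0.43, and LSM6 fell by 0.60. Of 25 proteins of the catalytic steps and the Prp19 complex 4 rose and 9 fell. SYF2 fell by 0.97 (edgeR adjusted p = 3.16e-08) and XAB2 by 0.65, while BCAS2 rose by 0.55. In these 4 lists both directions occurred, with the most falls in the catalytic group and the most rises in the U4/U6.U5 group.

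Of 11 exon junction complex genes 3 rose and 1 fell (36.4% past the limit). Over all genes tested 56.8% passed, 28.7% higher and 28.1% lower. ALYREF had a log2 fold change of 0.61, CASC3 of 0.43 and UPF3B of -0.30. Of 11 factors of nonsense-mediated decay, which degrades transcripts with early stop codons, 4 rose and 2 fell (54.5% past the limit). SMG5, which recruits decay enzymes, had 59.8, 68.0 and 64.8 CPM in PC9 and 148, 155 and 155 CPM in PS, or 1.25 higher on the log2 scale (standard error 0.05, edgeR adjusted p = 4.47e-09). UPF3A fell by 0.38. Of 51 other RNA-binding splicing regulators tested (of 58 listed) 22 rose and 10 fell (62.7% past the limit). Those with the smallest p-values were PCBP4 (log2 fold change 0.94), PSPC1 (-0.72) and TAF15 (0.48). The median log2 fold change was 0.0569 over the decay factors and 0.0985 over these regulators.

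**Figure D5:**
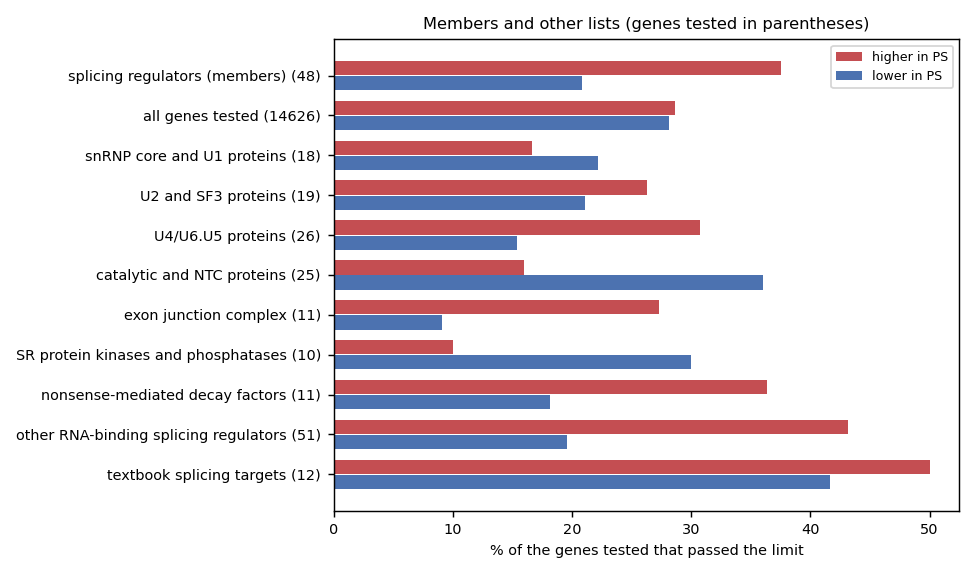
Percent of the genes tested in each list that passed an adjusted p of 0.01 and were higher (red) or lower (blue) in PS. The numbers in parentheses are genes tested. Over all 14626 genes 28.7% were higher and 28.1% lower. Lower calls outnumber higher ones in the snRNP core and U1, catalytic and kinase lists.

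Finally, 13 genes known as targets of ESRP, QKI, PTBP or hnRNP proteins were listed, and 12 were tested. As genes 6 rose and 5 fell, where 56.8% of all genes tested passed, with FN1 at a log2 fold change of 2.97, TPM1 at 1.31 and ENAH at 1.17. In transcript usage CD44, TPM1 and CTNND1 passed, where 1.86% of all genes did. Their adjusted p in the usage test of edgeR was 5.25e-10, 4.19e-08 and 4.99e-03, each for the gene and not for a single transcript. CD44-209 held 38.3%, 37.5% and 38.4% of CD44 counts in PC9 and 24.9%, 25.7% and 25.7% in PS. CD44-201 held 22.4%, 26.2% and 25.2% in PC9 and 31.9%, 30.7% and 29.5% in PS. Of the other leading CD44 transcripts, CD44-208 went from 5.19%, 3.12% and 3.69% to 7.20%, 7.01% and 9.45%, and CD44-206 from 26.0% to 28.1% on average. Their coding sequences have 1479 bases in CD44-209, 1083 in CD44-201, 2226 in CD44-208 and 2097 in CD44-206, so both shorter and longer ones had larger shares in PS. TPM1-208 went from 10.7%, 11.6% and 10.5% to 2.12%, 2.34% and 2.18%. CTNND1-222 went from 40.1%, 35.9% and 37.6% to 51.2%, 53.6% and 57.0%. PKM-202, the main PKM transcript, made up 92.5% in PC9 and 93.6% in PS on average, and PKM did not pass the usage test (edgeR adjusted p = 0.109). The usage of ENAH, FN1, BCL2L1, MCL1, NUMB, MAP3K7, SCRIB and ARHGEF11 did not pass either.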

How the data were processed

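The authors enriched poly-A RNA, sequenced it in pairs of reads, and pseudoaligned the reads to Ensembl 96 transcripts of GRCh38.p13 with kallisto (version 0.46.1 per the submitters' processing notes, which also name sleuth 0.30.0). They deposited kallisto's estimated counts, already rounded to whole numbers and not normalized, per gene symbol and per transcript. Reads that fit several transcripts are divided by kallisto, so near-identical transcripts and gene copies are uncertain. The second data set that the authors combined with these libraries was not analysed here.

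Conditions came from the sample labels. The test was the quasi-likelihood test of edgeR 4.0.16 in R 4.3.3 (filterByExpr, TMM, glmQLFit, glmQLFTest without a block, Benjamini-Hochberg over all features, limit 0.01). The standard error is the log2 fold change divided by the square root of F. Usage and the share of non-coding classes were tested with diffSpliceDGE (Simes), shares being of matched transcripts. Transcripts were matched by identifier to GENCODE 44, later than the authors' annotation, for 167067 of 188753 (95.8% of counts), and 552 of the 620 transcripts of splicing regulators had the same version. Matched transcripts held all but a few of the gene counts, except for HNRNPR and HNRNPL (50.0%), RBFOX2 (67.3%), HNRNPH1 (78.6%) and ESRP1 (84.0%). TPM were computed from matched transcripts and their annotated lengths. Floors of 3 counts cover counting error only, and the spread between libraries sets the precision of the means. An exact permutation test of 3 against 3 libraries cannot give a p under 0.1.

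Values per library are given for all genes of the small role groups, for up to 5 higher and 5 lower hnRNP and SR genes past the limit (mean log2 CPM above 1), the 2 most abundant per length of each (over both conditions), and genes past the class-share limit. Transcripts named are up to 2 each for the 8 genes with the smallest usage p and for genes past the class-share limit, and up to 3 genes were named per further list, 1 of which is not reported here. Transcripts outside this rule were chosen after their values were seen, namely CLK1-210, HNRNPC-218, QKI-204, SRSF6-201, SRSF6-202, SRSF11-202 and those of the target genes. The genes and lists were chosen with earlier results of these data known. Alternatives were DESeq2 1.42.0, limma 3.58.1, other normalizations, filters and limits, transcript sums, a replicate block and leaving out each library. All tests were also run on simulated counts with a fixed spread between libraries. Those counts held no division of reads between transcripts, so that uncertainty was not covered. Figures used matplotlib 3.10.9.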

Additional observations from a re-analysis of the deposited data

How the results depend on the processing

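Of the 28 splicing regulators past the limit, 24 also passed in all 15 other gene-level settings that kept the limit. The other 4 were HNRNPK, TRA2A, CLK1 and RBFOX2. Of the 20 not past it, 6 passed in at least 1 of these settings (CLK4, HNRNPA0, HNRNPD, MBNL1, PTBP3 and SRSF4). The count was between 24 and 30 without each library in turn (16 to 18 higher, 8 to 12 lower), and 2 (1 higher, 1 lower) with a fold change above 1.5 also required. Scaling by upper quartile or by library size only moved the median log2 fold change of all genes to -0.0491 and -0.0594 and the split of the splicing regulators to 16 higher and 12 lower, and to 16 and 13. Near 0 the sign changed for CELF1 (0.0019 with DESeq2 and with RLE factors, 0.0029 without the low-count filter), for MBNL2 and SRSF9 (-0.022 and -0.028 with upper quartile, -0.032 and -0.039 with library size only) for HNRNPDL (-0.0037 with library size only) and for HNRNPLL (in 4 settings, between -0.048 and 0.035). Without each library the log2 fold change of CELF1 ran from -0.011 to 0.012, of PTBP2 from -0.13 to 0.083, of ESRP2 from -0.038 to 0.0085, of MBNL2 from -0.012 to 0.055 and of SRSF9 from -0.010 to 0.041. The transcripts past the limit were 72 at an adjusted p of 0.05, 87 with DESeq2, 4 with a replicate block and 13 to 24 without each library. Changed usage was called in 6 at 0.05, 9 with the F test and 1 to 4 without each library, and changed class share in 1 with decay targets and retained introns only, 0 with a replicate block and 0 to 2 without each library. For the class share of splicing regulators, 10 had an unadjusted p under 0.05 in the main test. Correlations of same-numbered deviations were 0.124, 0.024 and 0.022, and those of unlike numbers ran from -0.117 to 0.0971. These weak values do not settle whether replicate numbers pair the libraries. With the replicate block 32 genes, 4 transcripts and 2 genes of changed usage passed among the splicing regulators. Over all genes 8671 passed with the block and 8307 without it. The spread between 3 libraries, and for transcripts the division of reads, limits what can be detected.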
